A study of Mus musculus with 8 samples.

Results

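Kupffer cells are the resident macrophages of the liver, and 10 genes that mark them were followed through cultures of activated hepatic stellate cells (AHSC) and of bone marrow-derived macrophages (BMDM). The genes were Clec4f, Vsig4, Marco, Cd163, Timd4, Folr2, Cd5l, Nr1h3, Spic and Id3. They and the other gene lists below were chosen by name, with earlier results of these data known. Each of the 10 was listed once in both deposited tables, which held 18645 genes for AHSC and 17408 genes for BMDM, with 16671 in common. RNA was sequenced from 8 libraries of C57BL/6 mouse cells, with 2 libraries in each of 4 groups. AHSC, which are the collagen-producing cells of the injured liver, came from a density gradient of collagenase-digested liver and were exposed for 12 h to vehicle (untreated in the labels) or to 0.03 µM auranofin, a gold compound used against rheumatoid arthritis. BMDM were grown from marrow of 8-week-old mice for 7 days with M-CSF, and both BMDM groups received 100 ng/mL LPS and 1 mM ATP, with vehicle or with auranofin for 1 h (0.1 µM in the labels and 0.3 µM in the paper). A gradient fraction is not a purified cell type, and no source used here says whether the libraries of a group came from separate animals, so p-values measure only the spread between these libraries, which may be technical.

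Kupffer cells line the liver sinusoids, where they clear bacteria, apoptotic cells, modified lipoproteins and iron-laden red cells from the blood. Their identity is held by signals from neighbouring stellate, endothelial and parenchymal cells, among them Notch ligands, TGF-β family ligands and oxysterols. Inside the cell the nuclear receptor LXRα (Nr1h3), the ETS factor SpiC (Spic) and the helix-loop-helix protein Id3 maintain this programme, and PU.1 (Spi1) serves as the general macrophage factor. Clec4f is the member most restricted to Kupffer cells, whereas Marco, Cd5l, Folr2 and Cd163 are also made by other macrophages, and Id3 and Nr1h3 by many cell types.

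The promoters of 4 members are printed because they belong to the genes on which the comparisons turn. Clec4f and Nr1h3 were the members that passed the test after auranofin, Vsig4 was the member with the widest gap between the cultures on the log2(FPKM + 1) scale, and Spic was expressed in both. Each runs 5′ to 3′ in the direction of transcription, from 250 bases before to 50 bases after the RefSeq start site on GRCm38.p6, all on the minus strand. Capitals mark GGAAGT, the core bound by PU.1 and other ETS factors, or its reverse complement, and in Clec4f also a reverse match to TGACNNNGC, the core of the antioxidant response element.
Clec4f, chr6:83656067-83656366: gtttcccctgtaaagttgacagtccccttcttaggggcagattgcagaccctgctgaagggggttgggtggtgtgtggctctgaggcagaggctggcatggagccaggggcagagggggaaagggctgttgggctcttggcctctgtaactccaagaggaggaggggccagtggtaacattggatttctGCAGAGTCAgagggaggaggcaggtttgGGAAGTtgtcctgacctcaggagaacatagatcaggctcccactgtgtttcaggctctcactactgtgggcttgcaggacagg
Vsig4, chrX:96293389-96293688: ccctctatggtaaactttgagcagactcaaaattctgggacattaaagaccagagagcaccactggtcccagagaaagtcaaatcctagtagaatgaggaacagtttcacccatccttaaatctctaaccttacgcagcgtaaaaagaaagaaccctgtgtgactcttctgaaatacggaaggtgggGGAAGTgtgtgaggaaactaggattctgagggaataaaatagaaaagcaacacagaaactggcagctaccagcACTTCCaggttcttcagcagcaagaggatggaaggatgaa
Spic, chr10:88682974-88683273: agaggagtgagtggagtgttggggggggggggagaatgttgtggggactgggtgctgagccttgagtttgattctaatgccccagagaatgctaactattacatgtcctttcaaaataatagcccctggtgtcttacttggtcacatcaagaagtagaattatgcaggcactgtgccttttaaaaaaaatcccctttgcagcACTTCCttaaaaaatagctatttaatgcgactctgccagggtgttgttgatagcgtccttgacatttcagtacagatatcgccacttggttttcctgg
Nr1h3, chr2:91195067-91195366: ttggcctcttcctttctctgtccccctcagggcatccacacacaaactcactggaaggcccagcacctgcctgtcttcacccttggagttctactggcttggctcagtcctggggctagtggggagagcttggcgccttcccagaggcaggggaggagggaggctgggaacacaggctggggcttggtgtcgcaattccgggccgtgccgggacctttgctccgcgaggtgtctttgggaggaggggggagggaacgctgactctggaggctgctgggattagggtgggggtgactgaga
Searched on both strands, GGAAGT was present in promoters of 5 of the 10 genes (Clec4f, Vsig4, Spic, Timd4 and Folr2), against 23.8% of all 32851 promoters in the table. For each motif a member was counted if any of its listed promoters matched, whereas the shares are of single promoters, so the 2 are not alike. In Clec4f its first base lay at -33 from the start site, in Spic at -48, and in Vsig4 at -63 and again at 11. TGACNNNGC, a motif added after the values were seen, was present in Clec4f at -61 and in Folr2 at -45, against 12.4% of all promoters. The AP-1 motif TGACTCA, which can overlap TGACNNNGC, was found in Folr2 (5.20% of all promoters) and the SMAD motif CAGACA in Timd4 (21.0%). No member held the RBPJ motif GTGGGAA (6.38%), TATAAA (13.6%) or the LXR response element, a repeat of AGGTCA with a spacer (0.0152%), in this window. Nr1h3 matched none of these letters in either of its 2 listed promoters.

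Levels were given as FPKM, fragments scaled to the length of the transcript and the depth of the library, so they can be compared between genes within a library. The tables hold no counts. The depth of the libraries, which the single-fragment steps of low values give, was estimated at 29800000 to 39400000 fragments in AHSC and 27500000 to 34900000 in BMDM. The AHSC libraries held 9 of 9 stellate markers listed in both tables at least 2-fold above BMDM, with Acta2 at 956 and 965 FPKM and Col1a1 at 1001 and 1075 FPKM in the vehicle libraries. They also held macrophage RNA, with the lysozyme gene Lyz2 at 5519 and 5554 FPKM and the 12 pan-macrophage genes at a geometric mean of 192 and 193 FPKM, against 557 and 567 FPKM in BMDM. Endothelial markers were present in AHSC at a summed level of 164 to 183 FPKM over 9 genes, led by Pecam1 (46.9 and 43.4 FPKM with vehicle) and Oit3 (46.3 and 44.7 FPKM). Hepatocyte markers, Alb and Apoa2 among them, summed to 0.758 to 2.59 FPKM over 8 genes and cholangiocyte markers, mainly Krt19 and Krt7, to 9.64 to 12.1 FPKM over 3 genes. One library in each table stood apart from its partner, in AHSC for far fewer genes than in BMDM. Auranofin replicate 2 of AHSC had S100a9 at 44.7 FPKM and S100a8 at 23.6 FPKM, against 2.23 to 10.8 and 3.75 to 6.87 FPKM in the other AHSC libraries. Of 6430 AHSC genes that averaged 10 FPKM or more, 19 were 2-fold or more apart between the auranofin replicates, against 13 between the vehicle replicates. In BMDM, 4245 genes averaged 10 FPKM or more, and 383 of them were 2-fold or more apart between the auranofin replicates, against 14 between the vehicle replicates, and auranofin replicate 1 carried most of the differences described for the members.

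The vehicle AHSC cultures expressed 8 of the 10 genes at over 10 FPKM, and vehicle BMDM had 4 of the 10 at under 1 FPKM. Within the vehicle AHSC libraries the order ran from Cd5l through Marco, Vsig4, Id3, Folr2, Clec4f, Nr1h3, Spic and Cd163 to Timd4. Vsig4 and Id3 overlapped in this order, and every other pair of neighbours was separated in both replicates. In vehicle BMDM the order was Folr2, Cd5l, Marco, Nr1h3, Spic, Id3, Vsig4, Timd4, Cd163 and Clec4f. No neighbours overlapped there, although the higher Timd4 value (0.606 FPKM) lay just below the lower Vsig4 value (0.617 FPKM).

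**Figure D1:**
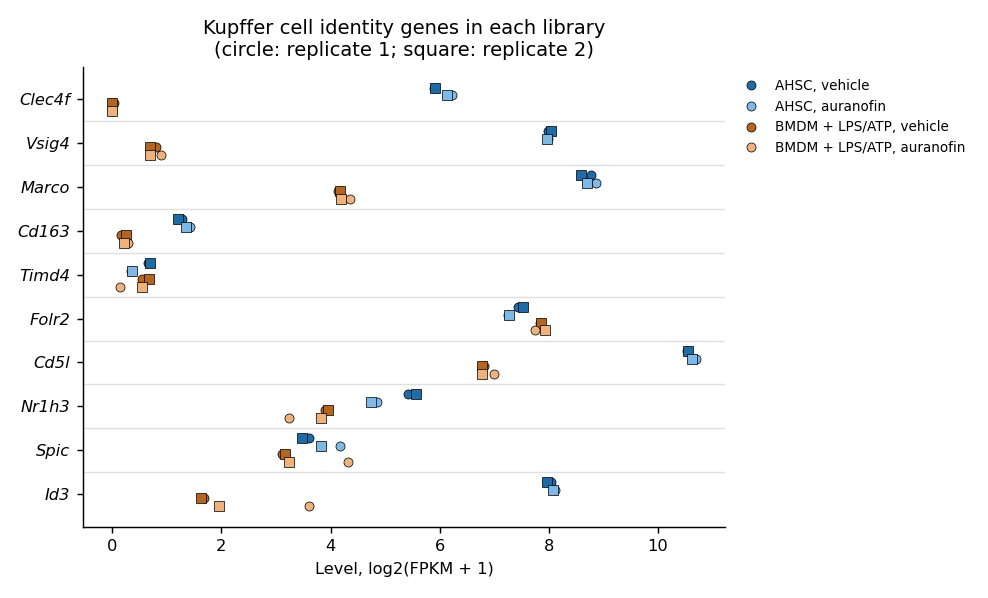
Level of each of the 10 genes in every library as log2(FPKM + 1), with circles for replicate 1, squares for replicate 2, blue for AHSC and orange for BMDM with LPS and ATP (dark for vehicle, light for auranofin). Clec4f, Vsig4, Marco, Cd163, Cd5l and Id3 lie higher in all 4 AHSC libraries than in all 4 BMDM libraries, Folr2 lies slightly lower, and Timd4 lies near the bottom in both.

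Among the surface receptors, Clec4f encodes a C-type lectin that binds galactose-bearing glycans and lies on chr6:83644542-83656116 (GRCm38.p6, as for the other genes). Its level in AHSC was 58.6 and 59.2 FPKM with vehicle, and with auranofin 73.5 and 69.1 FPKM. In BMDM it was 0.0280 FPKM in vehicle replicate 1, which stands for 2 fragments, and it was listed at 0 in the other three libraries. A count of 0 allows up to 0.0347 to 0.0441 FPKM in those libraries (3 fragments). The gene therefore separated the cultures almost as present and absent, and the ratio of the vehicle groups, 4169, had a 95% exact interval of 1154 to 34430, which covers counting error only.

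Vsig4 encodes a complement receptor of the immunoglobulin superfamily that binds C3b and captures opsonised bacteria (chrX:96247201-96293438). It was at 251 and 261 FPKM in vehicle AHSC and at 253 and 249 FPKM with auranofin. BMDM had 0.748 and 0.617 FPKM with vehicle, and with auranofin 0.870 and 0.624 FPKM, or 24 to 44 fragments a library. All AHSC libraries were thus far above all BMDM libraries, and the vehicle means of 255.9 ± 6.67 and 0.682 ± 0.0922 FPKM (SD, n = 2) differed 375-fold. This gene had the widest difference of the 10 on the log2(FPKM + 1) scale, 7.26.

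Marco, a scavenger receptor for bacteria and particles (chr1:120474538-120505024), measured 439 and 382 FPKM in vehicle AHSC and 463 and 413 FPKM with auranofin. In BMDM it measured 16.7 and 17.1 FPKM with vehicle, and with auranofin 19.4 and 17.3 FPKM. The cultures did not overlap, and the vehicle means differed 24.3-fold. Unlike Clec4f and Vsig4, Marco was thus clearly expressed in both.

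Cd163 encodes the receptor for haptoglobin-haemoglobin complexes (chr6:124304636-124330529). Its level was low everywhere, at 1.43 and 1.32 FPKM in vehicle AHSC, 1.69 and 1.56 FPKM in AHSC with auranofin, and 0.112 to 0.218 FPKM over the 4 BMDM libraries. The groups did not overlap between cultures, but the 8.86-fold ratio rests on vehicle BMDM values of 0.112 and 0.198 FPKM. By rank, Cd163 was 11665 of 18645 genes in AHSC and 11522 of 17408 in BMDM.

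Timd4, whose product TIM4 binds phosphatidylserine on apoptotic cells and marks Kupffer cells of embryonic origin (chr11:46810786-46844333), was low in both cultures. It was at 0.568 and 0.610 FPKM in vehicle AHSC and at 0.453 and 0.606 FPKM in vehicle BMDM, so the means differed 1.11-fold and the cultures overlapped. These levels stand for 39 and 44 fragments in AHSC and 29 and 36 in BMDM. With auranofin, AHSC had 0.262 and 0.290 FPKM, and BMDM had 0.0998 and 0.467 FPKM. As deposited, a culture rich in Clec4f and Vsig4 transcripts thus held Timd4 at the level of marrow macrophages, while relative to the pan-macrophage genes Timd4 was 3.25-fold higher in AHSC. Most genes were higher in AHSC under that scaling. On the log2 scale with a pseudocount of 1, Timd4 then differed by 0.67, below the median of 2.24 for all genes.

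Folr2, the folate receptor of tissue-resident macrophages (chr7:101839988-101857190), was the only member with a lower level in vehicle AHSC than in vehicle BMDM as deposited. It measured 171 and 184 FPKM in vehicle AHSC, 152 and 154 FPKM with auranofin, 229 and 232 FPKM in vehicle BMDM, and 214 and 243 FPKM in BMDM with auranofin. The ratio of the vehicle means, AHSC to BMDM, was 0.772, and no AHSC library reached any BMDM library. Folr2 held nearly the same rank in both tables, 340 in AHSC and 350 in BMDM.

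The secreted member Cd5l, a scavenger-receptor protein known as AIM that binds fatty acid synthase and microbial patterns (chr3:87357881-87371074), was the most abundant member in AHSC. AHSC had 1474 and 1499 FPKM with vehicle, and with auranofin 1657 and 1577 FPKM. BMDM had 111 and 108 FPKM with vehicle, and with auranofin 127 and 108 FPKM. The vehicle means were 13.6-fold apart. Cd5l ranked 17 of all 18645 genes in vehicle AHSC and 687 of 17408 genes in vehicle BMDM.

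Of the transcription regulators, Nr1h3 encodes LXRα, the oxysterol receptor that drives cholesterol efflux genes and on which Clec4f expression depends in Kupffer cells (chr2:91184061-91202829). It measured 42.0 and 46.5 FPKM in vehicle AHSC and 27.9 and 25.8 FPKM with auranofin. In BMDM it measured 13.9 and 14.5 FPKM with vehicle, and with auranofin 8.45 and 13.2 FPKM. AHSC lay above BMDM in all libraries, and the vehicle means differed 3.12-fold. The lowest value of each culture was in an auranofin library.

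Spic, the ETS factor that red-pulp and liver macrophages use for iron recycling (chr10:88675269-88683023), measured 11.2 and 10.1 FPKM in vehicle AHSC and 17.1 and 13.2 FPKM with auranofin. BMDM had 7.64 and 7.94 FPKM with vehicle, and with auranofin 19.1 and 8.40 FPKM. The cultures overlapped once the auranofin libraries were counted, because the highest Spic level of all 8 libraries was in auranofin replicate 1 of BMDM. The vehicle means differed 1.37-fold.

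Id3, an inhibitor of helix-loop-helix factors (chr4:136143822-136145392), measured 261 and 249 FPKM in vehicle AHSC and 274 and 269.9 FPKM with auranofin. In BMDM it measured 2.20 and 2.08 FPKM with vehicle, and with auranofin 11.2 FPKM in replicate 1 and 2.86 FPKM in replicate 2. The vehicle means differed 119-fold. Stellate and endothelial cells, whose markers were present in AHSC, make Id3 as well, and their part in its level was not tested.

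The tables were normalized separately and the cultures differed in tissue, treatment and exposure time, so no test was made between them and the differences are described against those of all genes. In bulk samples, fewer cells of a type and less RNA per cell cannot be told apart. As deposited, the median gene was itself 1.01 higher in AHSC on the log2(FPKM + 1) scale, and 50.7% of the 12271 genes with at least 1 FPKM in either vehicle mean were at least 2-fold higher there, against 9.53% at least 2-fold lower. Of the members, 9 reached that level. Of these, 7 were at least 2-fold higher in AHSC, 0 were 2-fold lower, and their median difference was 3.75. The exceptions were Folr2 (-0.37) and Spic (0.41), and Timd4, under 1 FPKM in both, differed by 0.06.

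The size of these differences, and for 3 members their sign, depended on the scaling. With every library divided by the median of the 8749 genes shared at 1 FPKM, 5 members were at least 2-fold higher in AHSC and Folr2 alone was 2-fold lower (-1.18), against 29.6% and 16.3% of all genes. Spic (-0.33) and Timd4 (-0.24) then also took the opposite sign. With every library set to the same FPKM sum, 7 members were at least 2-fold higher, against 58.8% of all genes. Divided by the geometric mean of the pan-macrophage genes, which puts the level per macrophage transcript, 9 of 9 members were at least 2-fold higher in AHSC, with a median of 5.29 against 2.24 for all genes, and Folr2 turned to 1.16. On that scale 85.1% of all genes were at least 2-fold higher, since this divisor is larger in BMDM. Clec4f, Vsig4, Id3, Marco and Cd5l kept a difference of at least 2.94 under each of the 4 scalings, whereas Folr2, Spic and Timd4 changed sign.

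**Figure D2:**
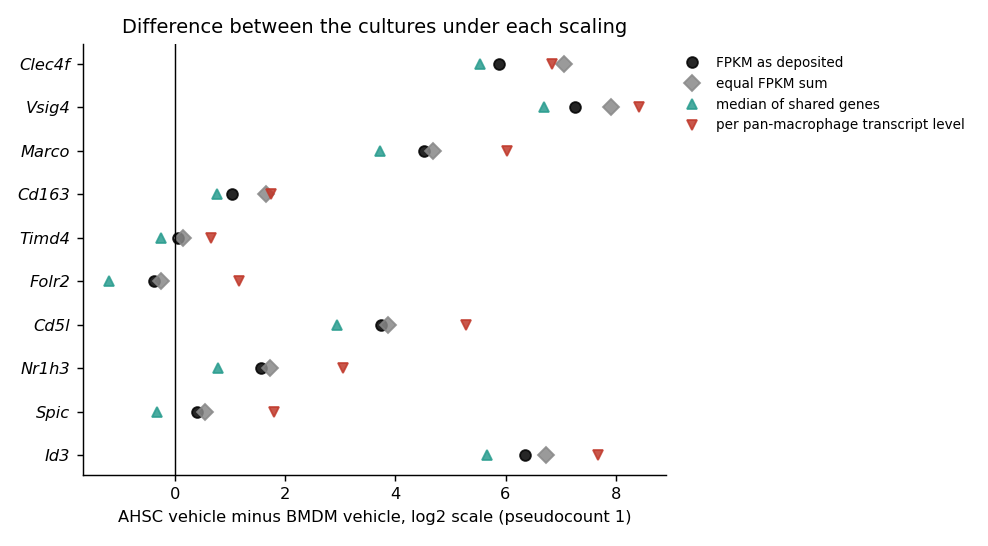
Difference of each gene between vehicle AHSC and vehicle BMDM on the log2 scale with a pseudocount of 1, under 4 scalings shown by symbol. Vsig4, Id3 and Clec4f lie farthest to the right under every scaling, and Folr2, Spic and Timd4 lie on both sides of 0.

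As deposited, other genes of Kupffer cells were also mostly higher in AHSC, and general macrophage genes were not. The shares of all genes on this scale were 50.7% at least 2-fold higher and 9.53% at least 2-fold lower. Of 9 further Kupffer cell genes with at least 1 FPKM, 8 were at least 2-fold higher in AHSC (median 3.09), including the iron exporter Slc40a1 (124 and 118 FPKM against 1.95 and 2.18 FPKM) and the fatty acid binding protein Fabp7 (183 and 177 FPKM against 19.5 and 20.8 FPKM). One of the 8, Cdh5, is also the cadherin of endothelial cells, whose markers the AHSC libraries held. Il18bp, the IL-18 binding protein, went the other way, at 30.0 and 28.8 FPKM against 124 and 119 FPKM. Of the 12 pan-macrophage genes, 0 were 2-fold higher and 7 were 2-fold lower in AHSC (median -1.68), with Lyz2 differing by 0.59 and Ctss, a lysosomal protease, at 678 and 695 FPKM against 2921 and 2721 FPKM. Of 8 genes of recruited macrophages, 0 were higher and 6 were lower (median -1.92), Spp1, the osteopontin gene, being at 359 and 464 FPKM against 4579 and 4672 FPKM and Gpnmb, a lysosomal glycoprotein, at 1562 and 1643 FPKM against 2974 and 2825 FPKM.

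Groups tied to the function of the members had medians below that of all genes (1.01). Of all genes, 50.7% were at least 2-fold higher in AHSC and 9.53% at least 2-fold lower. Scavenging and complement genes, such as C1qb and C1qc of the first complement component, had 2 of 10 higher and 2 lower (median 0.26). LXR target genes, to which Apoe and Smpdl3a belong, had 5 of 10 higher and 1 lower (median 0.89). Regulators of the Kupffer niche had 7 of 20 higher and 6 lower (median 0.23), among them Spi1 at 118 and 121 FPKM in AHSC and 318 and 339 FPKM in BMDM, and Irf8 at 23.1 and 23.8 FPKM against 195 and 228 FPKM. Stellate markers (median 7.75) and endothelial markers (median 3.92) were higher in AHSC as well. A high level in AHSC relative to BMDM was therefore shared by genes of several liver cell types.

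**Figure D3:**
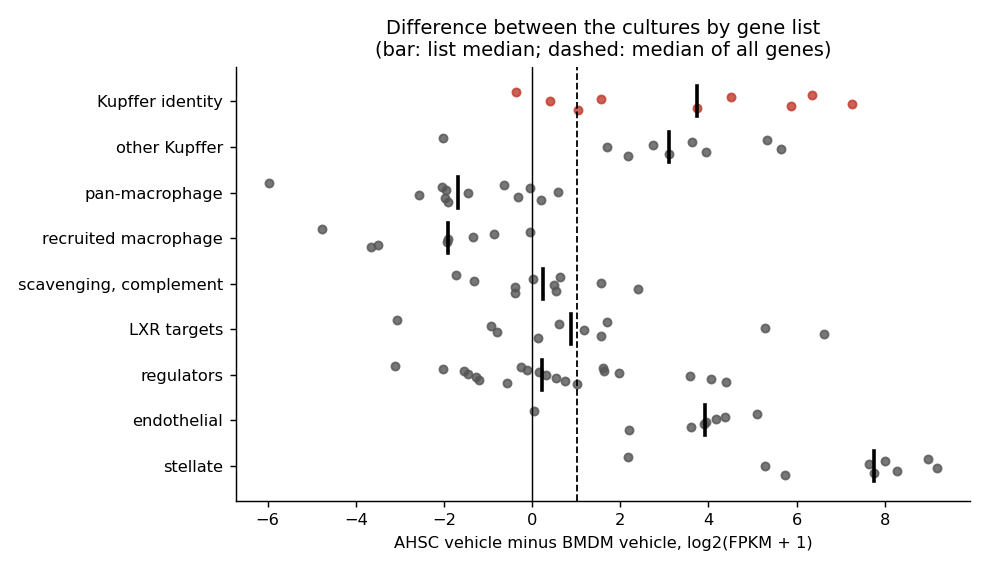
Difference between vehicle AHSC and vehicle BMDM on the log2(FPKM + 1) scale for each gene of 9 lists (dots), with the list median (bar) and the median of all genes (dashed line, 1.01). The Kupffer cell genes (red, median 3.75) and the further Kupffer cell genes (median 3.09) lie mostly right of the dashed line, and the pan-macrophage and recruited macrophage genes lie left of it.

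The genes whose levels over the 8 libraries were most like those of Clec4f, by the root mean square difference of log2(FPKM + 1), were Ptgis (0.143), Ddr1 (0.155), Fermt2 (0.193), Egfl7 (0.215) and Tm4sf1 (0.223). Those most like Vsig4 were Col5a2 (0.234), Nedd4 (0.270), Serpinf1 (0.274), Fstl1 (0.278) and Col4a2 (0.294). Ptgis, the prostacyclin synthase, was at 68.0 to 74.4 FPKM in AHSC and at 0 to 0.0460 FPKM in BMDM, and the collagen gene Col5a2 was at 278 to 312 FPKM and 0.399 to 0.679 FPKM. The measure follows mainly the step between the cultures, and genes of stellate and endothelial cells take the same step.

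In AHSC, auranofin was compared with vehicle to ask how the drug changed transcripts of activated stellate cell cultures. Clec4f rose and Nr1h3 fell, and the other tested members did not pass the threshold. With limma on log2(FPKM + 1) and Benjamini-Hochberg adjustment over the 12149 genes that averaged 1 FPKM or more, 2.33% of all genes were called at an adjusted p under 0.05, 1.24% higher and 1.09% lower. Of the 10 members, 9 were tested, 1 was called higher and 1 lower, and Timd4 fell short of 1 FPKM. At an unadjusted p under 0.05, 4 members were higher and 2 lower, against 17.8% of all genes. The members' median difference was 0.09, against 0.0049 for all genes tested.

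The fall of Nr1h3 was the largest change among the tested members. Both auranofin libraries (27.9 and 25.8 FPKM) lay below both vehicle libraries (42.0 and 46.5 FPKM), a ratio of means of 0.607. The log2 difference was -0.70 (standard error 0.06, adjusted p = 0.00888, limma with Benjamini-Hochberg adjustment), with -0.64 in auranofin replicate 1 and -0.75 in replicate 2. The call was lost when genes of every level entered the fit (adjusted p = 0.0608, limma).

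The rise of Clec4f was smaller. From 58.6 and 59.2 FPKM with vehicle it reached 73.5 and 69.1 FPKM with auranofin, 1.21-fold, with both auranofin libraries above both vehicle libraries. The log2 difference was 0.27 (standard error 0.04, adjusted p = 0.0395, limma with Benjamini-Hochberg adjustment). It stood close to the threshold: without auranofin replicate 1 the difference was 0.23 and the adjusted p from limma 0.128, with no filter on low values 0.117, and without the variance trend 0.0979. Without auranofin replicate 2, the library with the high S100a8 and S100a9, both calls held, with Clec4f at 0.32 (adjusted p = 0.0444, limma) and Nr1h3 at -0.64 (adjusted p = 0.0169, limma).

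The other members are given with their values because they missed the threshold. Spic differed by 0.46 (standard error 0.12, adjusted p = 0.130, limma), with 0.63 in replicate 1 and 0.28 in replicate 2, and its call depended on the libraries, since the adjusted p from limma was 0.0390 without vehicle replicate 1 and 0.0199 without auranofin replicate 2. Folr2 differed by -0.21 (standard error 0.04, adjusted p = 0.0749, limma), and both auranofin libraries lay below both vehicle libraries. Without vehicle replicate 1 its adjusted p from limma was 0.0153.

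Cd5l (0.12), Cd163 (0.15) and Id3 (0.09) had both auranofin libraries above both vehicle libraries, at adjusted p of 0.190, 0.401 and 0.267 from limma. Such separation in either direction was seen in 7 of the 9 tested members, 5 higher and 2 lower, and in 50.1% of all genes tested (26.2% higher and 23.9% lower). Vsig4 (-0.03, adjusted p = 0.715, limma) and Marco (0.09, adjusted p = 0.599, limma) overlapped between the groups. The exact permutation test of 2 libraries against 2 cannot go below 0.333 for any single gene.

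Timd4, not tested for its low level, had 17 and 25 estimated fragments with auranofin against 39 and 44 with vehicle. The ratio of depth-adjusted counts was 0.472, with a 95% exact interval of 0.317 to 0.692 for counting error only. Both auranofin libraries lay below both vehicle libraries, and with no filter its adjusted p was 0.0973 (limma).

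**Figure D4:**
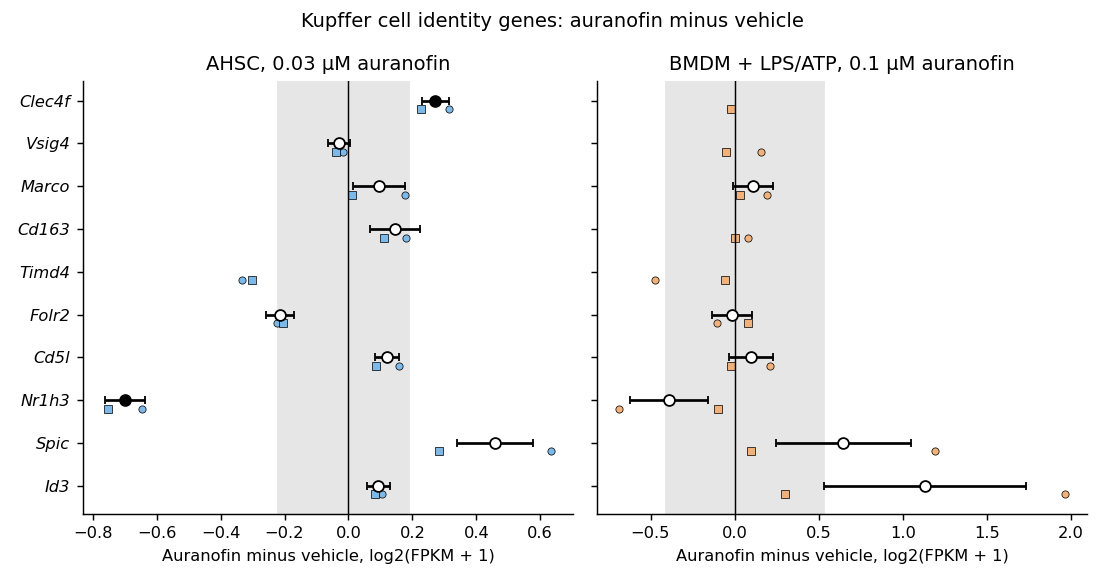
Difference between auranofin and vehicle on the log2(FPKM + 1) scale in AHSC (left) and BMDM (right, wider axis), with large points and bars for the limma estimate and its standard error (black where the adjusted p is under 0.05, white where it is not, none where the gene was not tested). Small circles and squares are auranofin replicates 1 and 2 against the vehicle mean, and the grey band holds the 5th to 95th percentile of all genes tested. In AHSC Clec4f (0.27) and Nr1h3 (-0.70) are black, and in BMDM replicate 1 lies far from replicate 2 for Id3, Spic and Nr1h3.

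Outside the Kupffer cell and scavenging lists, macrophage genes showed no call in AHSC. Of all genes 2.33% were called and 17.8% had an unadjusted p under 0.05 (limma). At that share of calls, 0 of 12 and 0 of 5 cannot show whether such genes changed. Of the 12 pan-macrophage genes, 0 were called by limma at an adjusted p under 0.05, 0 were higher and 2 lower at an unadjusted p under 0.05, and their median was -0.06. Both auranofin libraries lay below both vehicle libraries in 5 of them and above in 0, against 23.9% and 26.2% of all genes. Lyz2 differed by -0.03 (5379 and 5440 FPKM with auranofin) and Ctss by -0.09. Neither recruited macrophage genes (0 of 5 called, 0 at an unadjusted p under 0.05) nor niche regulators (0 of 20 called, 4 higher and 3 lower at an unadjusted p under 0.05) gave a call. In the same libraries the stellate marker Acta2, smooth muscle actin, fell from 956 and 965 to 743 and 737 FPKM (log2 difference -0.38, adjusted p = 0.00719, limma). It was the only call among 10 stellate markers tested, of which 0 were higher and 6 lower at an unadjusted p under 0.05, with a median of -0.14 and both auranofin libraries below both vehicle libraries in 7. The endothelial lectins and receptors Clec4g and Stab2 fell by 0.44 and 0.37 (adjusted p = 0.0130 and 0.0169, limma), 2 of 8 endothelial markers tested, of which 1 was higher and 3 lower at an unadjusted p under 0.05 (median -0.06). The part of these cell types in the members' differences was not tested.

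LXR target genes did not pass the test with Nr1h3, but with 2.33% of all genes called, 0 of 10 cannot show whether they followed it. Of 10 tested, 0 were called by limma, 0 were higher and 3 lower at an unadjusted p under 0.05 (the cholesterol transporters Abca1 and Abcg1, and Scd1), and the median was -0.03. Both auranofin libraries lay below both vehicle libraries in 4 of the 10 and above in 2, against 23.9% and 26.2% of all genes. Abca1 was at 22.0 and 21.8 FPKM with vehicle, and with auranofin 19.4 and 19.8 FPKM (-0.16, adjusted p = 0.118, limma). Apoe was at 1891 and 1921 FPKM with vehicle, and with auranofin 1932 and 1843 FPKM (-0.01). Neither RXRα, the partner of LXRα, nor its paralogue LXRβ gave a call, with Rxra at 31.7 and 32.5 FPKM with vehicle, and with auranofin 34.6 and 34.3 FPKM, and Nr1h2 at 42.3 and 43.6 against 45.3 and 47.7 FPKM. For Rxra and Nr1h2 the log2 differences were 0.10 and 0.11 (unadjusted p = 0.0379 and 0.0381, limma). An unadjusted p under 0.05 was reached by 17.8% of all genes.

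Among the further Kupffer cell genes 2 of 9 were called higher and 0 lower, against 1.24% and 1.09% of all genes. Their median was 0.03. Slc40a1, the ferroportin gene, rose from 124 and 118 to 169 and 163 FPKM (log2 difference 0.45, standard error 0.04, adjusted p = 0.00888, limma). Slc16a9, a monocarboxylate transporter, rose from 4.23 and 4.10 to 8.33 and 7.15 FPKM (0.76, adjusted p = 0.0118, limma). Of the scavenging and complement genes 1 of 10 was called higher and 1 lower. The lipid receptor Cd36 rose from 207 and 197 to 234 and 242 FPKM (0.24, adjusted p = 0.0464, limma), and the mannose receptor Mrc1, which macrophages and sinusoidal endothelium share, fell from 88.9 and 86.3 to 69.5 and 74.2 FPKM (-0.28, adjusted p = 0.0395, limma). With no filter on low values the calls of Slc40a1, Slc16a9, Cd36, Mrc1, Acta2, Clec4g and Stab2 were lost, at adjusted p of 0.0538 (Slc40a1) to 0.138 (Cd36) from limma.

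In BMDM treated with LPS and ATP, the same comparison called 0 members. By limma 0.0108% of the 9232 genes tested had an adjusted p under 0.05 (1 gene, higher), and 0.531% had an unadjusted p under 0.05. Of the members 6 were tested (Cd5l, Marco, Folr2, Id3, Spic and Nr1h3) and 0 were under either threshold, whereas Clec4f, Vsig4, Timd4 and Cd163 stayed under a mean of 1 FPKM. Both auranofin libraries lay above both vehicle libraries for 3 members (Marco, Id3 and Spic) and below for 1 (Nr1h3), against 38.8% of all genes in either direction (26.3% above and 12.6% below). The members' median difference was 0.10, against 0.09 for all genes tested.

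The differences in BMDM rested mostly on auranofin replicate 1. The labels give both auranofin libraries the same treatment. Whether the label, dose or time of either was wrong was not tested, and the BMDM values are given as labelled. Id3 differed by 1.13 (standard error 0.60, adjusted p = 0.721, limma), with 1.96 in replicate 1 and 0.30 in replicate 2. Spic differed by 0.65 (standard error 0.40, adjusted p = 0.721, limma), with 1.19 and 0.10. Nr1h3 differed by -0.39 (standard error 0.23, adjusted p = 0.721, limma), with -0.69 and -0.10. In each of the 3 genes replicate 2 took the direction of replicate 1 at a much smaller size, as their separation from vehicle in both libraries requires. Marco (0.19 in replicate 1 and 0.030 in replicate 2) did so too. Cd5l (0.21 and -0.022) and Folr2 (-0.10 and 0.077) took opposite directions.

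Cd5l (0.10), Marco (0.11) and Folr2 (-0.01) stayed near the shift of all genes, with adjusted p of 0.758, 0.721 and 0.958 from limma. Without auranofin replicate 2, so that replicate 1 stood alone for the drug, 5 of the 6 members were called, with Id3, Spic, Cd5l and Marco higher and Nr1h3 lower, together with 6051 of 9285 genes in all. Without auranofin replicate 1, 0 members and 15 genes were called, and Id3 was at 0.30 (adjusted p = 0.530, limma). Slc40a1 shows the same library, with 1.95 and 2.18 FPKM with vehicle, 58.6 FPKM in auranofin replicate 1 and 1.56 FPKM in replicate 2.

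Timd4 in BMDM had 8 estimated fragments in auranofin replicate 1 and 35 in replicate 2, against 29 and 36 with vehicle. The ratio to vehicle was 0.202 (95% exact interval 0.0836 to 0.422) in replicate 1 and 0.894 (0.575 to 1.37) in replicate 2, for counting error only. Vsig4 had 44 and 31 fragments against 32 and 24.

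Set side by side, Nr1h3 differed by -0.70 in AHSC and -0.39 in BMDM, Spic by 0.46 and 0.65, Id3 by 0.09 and 1.13, Cd5l by 0.12 and 0.10, Marco by 0.09 and 0.11, and Folr2 by -0.21 and -0.01. Doses and exposure times differed between the cultures, and the difference between the 2 responses was not tested.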

How the data were processed

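Per gene and library, an FPKM value was deposited by the authors, in separate tables for AHSC and BMDM. The library kit was for stranded mRNA. The genome build is mm10. The submitters' processing notes name CASAVA, FastQC 0.11.7, Trimmomatic 0.38, HISAT2 2.1.0 and StringTie 1.3.4d, and their settings are not given in the sources used here. Groups were taken from the sample labels.

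Values were analysed as log2(FPKM + 1), a scale that understates the change of low genes. Each table was fitted alone with limma (lmFit, eBayes with trend) on genes that averaged 1 FPKM or more over its 4 libraries, with Benjamini-Hochberg adjustment over all genes tested, and the fit was tested on simulated data. Levels in the 2 cultures were compared without a test. Fragments were estimated from the steps of single fragments in values under 0.2 FPKM of genes with 1 transcript. Intervals and the limit of 3 fragments for a value of 0 cover counting error only. Promoters and coordinates came from RefSeq on GRCm38.p6, and 10 of 10 members matched.

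The members and gene lists were chosen with earlier results of these data known. Named genes were all members, of each other list the genes called (at most 4 a table) and the 2 most abundant, and the 5 genes nearest to Clec4f and to Vsig4. LXR targets and regulators named beyond these (Abca1, Abcg1, Scd1, Rxra and Nr1h2), and Cdh5, were chosen after their values were seen, as was the motif TGACNNNGC. Alternatives were another pseudocount (0.1 FPKM), no filter, an average of 5 FPKM or more, quantile normalization, no variance trend, a replicate block, 3 scalings between cultures, and each library left out in turn. Statistics ran in limma 3.58.1 under R 4.3.3, and tables and plots in Python 3.11.15 with pandas 2.3.3, numpy 2.4.6 and matplotlib 3.10.9.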

Additional observations from a re-analysis of the deposited data

How the results depend on the processing

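In AHSC 283 genes and 2 members were called. With no filter on low values these were 49 and 0, and without the variance trend 129 and 1. With libraries left out in turn they ran from 179 to 517 genes and from 1 to 4 members. In BMDM 1 gene and 0 members were called. With no filter or quantile normalization 0 genes were called, without the trend 2, and with libraries left out 1 to 6051 genes and 0 to 5 members. A pseudocount of 0.1 and a mean of at least 5 FPKM left the number of called members in both tables as it was, and so did quantile normalization. The cause of these changes was not tested. Where a library was left out, the lone library of its group was assumed to vary like the other group.

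The replicate numbers share only a number, since no label says what they mark. The deviations of same-numbered libraries correlated at 0.20 in AHSC and -0.09 in BMDM. With the replicate number as a block, 282 genes and 1 member were called in AHSC, Clec4f standing at an adjusted p of 0.0530 (limma), and 1 gene and 0 members in BMDM.

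Signs changed for Marco in AHSC, which ran from -0.0047 without vehicle replicate 2 to 0.19 without vehicle replicate 1. In BMDM, leaving out auranofin replicate 1 or 2 gave -0.022 or 0.21 for Cd5l and 0.077 or -0.10 for Folr2. Between the cultures the median difference over all 10 members was 2.66 on the log2 scale. It was 2.80 with equal FPKM sums, 1.87 relative to the median of shared genes, 4.17 relative to the pan-macrophage genes, 3.16 with a pseudocount of 0.1, and 2.62 to 2.70 with vehicle libraries left out. Relative to the median of shared genes Timd4 (-0.24) and Spic (-0.33) turned lower in AHSC, and Timd4 ran from -0.015 without BMDM vehicle replicate 1 to 0.13 without replicate 2, and Folr2 turned higher relative to the pan-macrophage genes (1.16). The 2 libraries of a group limit the precision of every test, and below about 1 FPKM counting error limits Timd4, Cd163, and Clec4f and Vsig4 in BMDM.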

Other observations

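In auranofin replicate 1 of BMDM, transcripts of several regulators outside the member list stood apart from the other three libraries. Bach1, a haem-sensing repressor, was at 34.5 FPKM against 15.2, 15.2 and 13.8 FPKM. Maf was at 21.1 FPKM against 64.5, 66.8 and 62.8 FPKM, and Irf8 at 73.1 FPKM against 195, 228 and 225 FPKM. In the other auranofin library these 3 genes lay at or near their vehicle values. The genes were chosen after their values were seen, and no test was made on a single library.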
